A study of Sus scrofa with 22 samples.

Results

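Blastomeres of the pig 4-cell embryo and of the morula are the cells in the authors' groups Morula_E4 (30 cells) and 4C (23 cells), 53 of the 1647 cells of the series. Their columns in a deposited table of group means were fitted by least squares on the log2 values of all cells, and a cell was a member where its weight passed 50% of the largest. The cells set against them were those of 2C (10 cells) and 8C (80 cells), recovered in the same way. Each group is named for its cell number or for the morula of embryonic day 4 (E4). The labels give no genotype, treatment or breed for any of them, and do not say whether the embryos were flushed or cultured. Polyadenylated RNA of single cells was read by a modified Smart-seq2 protocol with an 8-base cell barcode, in 20 libraries of embryos from E0 to E14 and 2 of pgEpiSC, stem cells derived from pig epiblast.

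A pig embryo first lives on messenger RNA stored in the oocyte. Its own genome becomes widely active around the 4-cell stage, when maternal messages are being removed, nucleoli form and translation shifts to newly made messages. At the morula the blastomeres compact: they flatten on each other through E-cadherin, and the outer cells build the tight junctions and pumps that later make the blastocyst cavity and its trophectoderm wall.

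The Morula_E4 cells came from libraries P1 (24 cells) and P2 (6 cells), and the 4C cells from P1 (17 cells) and P13 (6 cells). The 2C cells came from P1 (8 cells) and P13 (2 cells), and the 8C cells from P19 (15 cells) and P20 (65 cells). Counts were added up per group and library, which gave a pair of sums per group. These sums held 5924277 counts (Morula_E4 of P1), 1310352 (Morula_E4 of P2), 6777984 (4C of P1) and 1962517 (4C of P13). The labels do not say whether cells came from separate embryos, so a p-value here measures the spread between sums, which may be technical. All levels are in CPM, the counts of a gene scaled to a common total over the pig genes of a sum, and are given for 1 gene at a time. Genes were called at an adjusted p under 0.05 by the quasi-likelihood test of edgeR, adjusted after Benjamini and Hochberg over all genes tested. Fits without P1 or within P1 keep 1 sum each of 2C, 4C and Morula_E4. Fits without another library keep 1 sum in at least 1 of the groups compared. A group of 1 sum adds nothing to the spread, which then comes from other groups. Counts of calls from such fits are descriptions of how calls depend on libraries, not tests on replicates.

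The 4C sum of P13 stood apart from the 4C sum of P1 before any comparison of stages. Of 6561 genes at a usable level, 966 (14.7%) were at least 4-fold higher in 4C of P1 than in 4C of P13, and 1104 (16.8%) at least 4-fold lower. The same split of Morula_E4, P1 over P2, gave 48 genes (0.972%) higher and 10 (0.203%) lower of 4938. Libraries P1, P2 and P13 held 59, 69 and 70 cell barcodes. Of these, P1 and P13 shared 45, P1 and P2 shared 40, and P2 and P13 shared 54. The 17 4C cells of P1 and the 6 of P13 had 5 barcodes in common. The 24 Morula_E4 cells of P1 and the 6 of P2 had 0.

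The 3 genes given as markers split the 4C group by library. KDM5B, a demethylase of histone H3 lysine 4, stood at 12.6 and 6.61 CPM in the 2C sums of P1 and P13, at 313 and 12.2 CPM in the 4C sums of P1 and P13, at 6.25 and 2.90 CPM in the 8C sums of P19 and P20, and at 209.8 and 217 CPM in the Morula_E4 sums of P1 and P2. IGF2BP1, which binds and stabilises messenger RNA, stood in the same order at 5.87 and 1.42, at 327 and 5.605, at 1.11 and 0.149, and at 151 and 132 CPM. KLF4, a zinc finger factor of pluripotent cells, stood at 105 and 41.5, at 646 and 33.6, at 23.0 and 24.8, and at 590.1 and 594 CPM. Each marker was high in both Morula_E4 sums and in 4C of P1, and in 4C of P13 each lay within or next to the range of the 2C sums. The exact 95% Poisson interval of KDM5B in 4C of P13 ran from 7.83 to 18.2 CPM, and that of IGF2BP1 from 2.80 to 10.0 CPM, so counting error does not reach the level of P1. Markers chosen with such values known get no test. The markers thus go with the label in the sums of the 17 4C cells of P1 and of the 30 Morula_E4 cells, and against it in the sum of the 6 cells of P13, which are called 4C of P13 after their group and library.

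**Figure D1:**
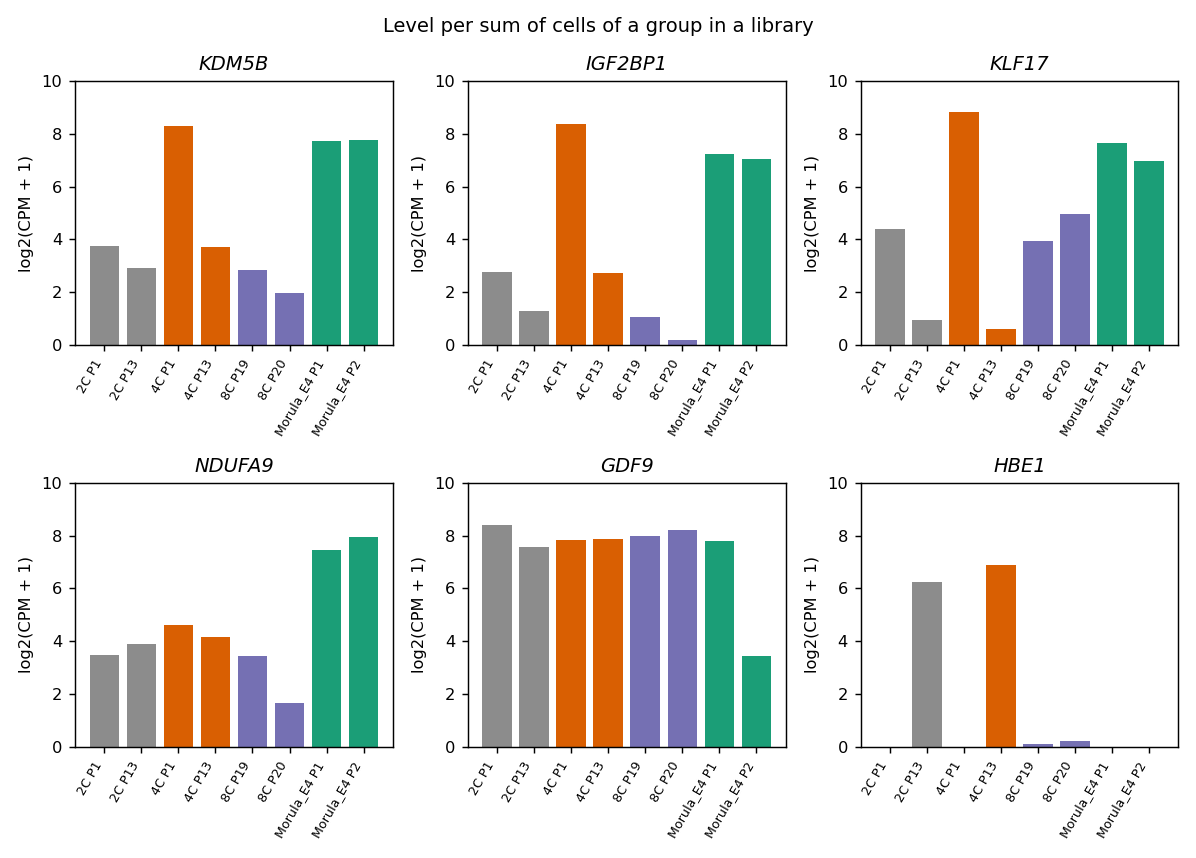
Level of 6 genes as log2(CPM + 1) in the sum of each group and library, from 2C to Morula_E4; each bar is 1 sum, with no error bar. KDM5B, IGF2BP1 and KLF17 are high in 4C of P1 and in both Morula_E4 sums, NDUFA9 is highest in the Morula_E4 sums, GDF9 is lowest in Morula_E4 of P2, and HBE1 is highest in the sums of P13.

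Each cell was placed on the line from the mean profile of 2C (position 0) to that of Morula_E4 (position 1) over the 2000 most variable genes, with its own values left out of the ends. The 2C cells had a median of -0.0071 in P1 and 0.0067 in P13. The 17 4C cells of P1 ran from 0.64 to 0.80 with a median of 0.70 (SD 0.052), whereas the 6 of P13 ran from 0.02 to 0.45 with a median of 0.29 (SD 0.20). The 8C cells had medians of -0.108 in P19 and -0.142 in P20. The Morula_E4 cells of P1 ran from 0.81 to 1.05 around 0.984, and those of P2 from 1.06 to 1.10 around 1.087. Every 4C cell of P1 thus lay nearer the morula than every 4C cell of P13, no 4C cell reached the lowest Morula_E4 cell, and 8C cells lay on the 2C side of all 4C cells of P1.

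**Figure D2:**
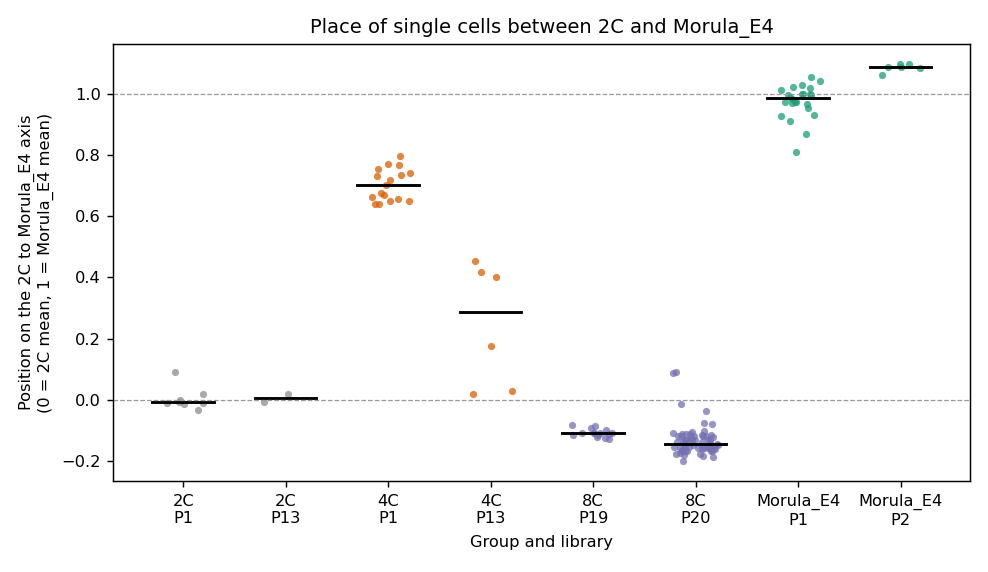
Position of single cells on the axis from the 2C mean (0) to the Morula_E4 mean (1), by group and library; each point is 1 cell and each black line a median. The 4C cells of P1 sit between 0.64 and 0.80, those of P13 between 0.02 and 0.45, and 8C cells around or below the 2C mean.

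The order held with all 11043 genes over 10 CPM in either end, where 4C of P1 had a median of 0.662 and 4C of P13 of 0.305. It also held with the ends taken from other libraries than P1, that is 2C of P13 and Morula_E4 of P2, where 4C of P1 had a median of 0.661 and 4C of P13 of 0.273. With every cell thinned to 50000 counts the medians were 0.711 for 4C of P1 and 0.107 for the 4 cells of P13 that had enough counts.

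Whole profiles gave the same order. By Spearman's rho across the same genes, the 4C sum of P1 was closest to Morula_E4 of P1 (0.759) and of P2 (0.664), and lay at 0.235 from 4C of P13 and 0.196 from 2C of P1. The 4C sum of P13 was closest to 2C of P13 (0.900) and of P1 (0.803), then to 8C of P19 (0.653) and of P20 (0.569), and lay at 0.088 from Morula_E4 of P1. Both Morula_E4 sums were alike at 0.906, both 2C sums at 0.849 and both 8C sums at 0.944. These are descriptions across genes, which are not replicates, and sums of 1 library share its depth and preparation. Set against the profiles of the early groups from Oocyte to the E5 blastocyst groups preTE_E5 and preICM_E5, all 17 4C cells of P1 were most like 4C and all 30 Morula_E4 cells most like Morula_E4, while of the 6 cells of P13, 3 were most like 2C and 3 most like Zygote. The members were chosen on means of the same groups, and the 4C profile holds 17 cells of P1 beside 6 of P13, so these matches were largely set by the choice. The Morula_E4 sum of P1 was as close to the preTE_E5 profile (0.910) as to the morula cells of P2 (0.906).

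The order of stages was not even within P1. The 4C cells of P1 had a median rho of 0.578 with the Zygote profile, 0.168 with the 2C profile and 0.678 with the Morula_E4 profile, so they were nearer the zygote than the 2-cell stage. The 6 zygotes of P1, with 1164059 counts in all, had 52.4 CPM of KDM5B, 43.0 CPM of IGF2BP1 and 313 CPM of KLF4, in each case above both 2C sums and below 4C of P1. Oocytes, zygotes, 2C, 4C and Morula_E4 cells of P1 were sequenced as 1 library. How far sharing a library bears on these levels was not tested.

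The 6 cells of P13 were themselves of 2 kinds in depth. The 3 deep ones, with 831613, 512511 and 469095 counts, sat at positions 0.030, 0.019 and 0.177. The 3 shallow ones, with 79014, 38500 and 31784 counts, sat at 0.418, 0.453 and 0.400. Over these 6 cells position and log10 of the count had a Pearson correlation of -0.947, given as a description. HBE1, an embryonic globin, stood at 74.6, 50.7 and 175 CPM in the deep cells and at 354, 286 and 566 CPM in the shallow ones.

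HBE1 was also counted in every other group of that library. It stood at 116 CPM in the 4C sum and 75.5 CPM in the 2C sum of P13, and at 85.1, 61.5 and 84.0 CPM in that library's preTE_E5, Ectoderm_E14 and Mesdoderm_E14 sums, against 0 CPM in the 4C, 2C and Morula_E4 sums of P1 and P2. HBZ, another embryonic globin, stood at 65.7 CPM in 4C of P13 and 52.9 CPM in 2C of P13. KRT8, a keratin of simple epithelia, stood at 288 CPM in 4C of P13 and 150.1 CPM in 2C of P13, against 4.43 CPM in 4C of P1. How much these transcripts bear on the place of the 4C cells of P13 was not tested.

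Among single genes the 12 with the largest ratio per direction were taken for 4C of P1 against 4C of P13. Higher in P1 were KLF17, a factor of naive pluripotency, at 447.5 CPM in 4C of P1 against 0.509 CPM in 4C of P13, and DPRX, a homeobox gene of the divergent paired type, at 193 against 0.509 CPM. VGLL2, a cofactor of TEAD proteins, stood at 473 CPM in 4C of P1 and 1.53 CPM in 4C of P13, and SDS, serine dehydratase, at 567 and 2.55 CPM. The transporter gene SLC16A6 had 248 CPM in 4C of P1 and no count in 4C of P13. In each, P13 was at or under the floor of 3 counts, 1.53 CPM, or just above it. The other genes named by size in this direction were TAC1, FGF13, ADAMTS5, IFI30, HELZ2, TKTL1 and ZNF804A. In the other direction TSACC stood at 0.295 CPM in 4C of P1 and 164 CPM in 4C of P13, TLE7 at 1.33 and 153 CPM, and CETN3, a centrin of the centriole, at 5.46 and 212 CPM. With 1 sum on each side there is no test.

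Against 4C of P1 alone, the pooled Morula_E4 cells differed in fewer genes than 4C of P13 did. Of these 30 Morula_E4 cells 24 came from P1, the library of that 4C sum, whereas 4C of P13 came from another. The part of the shared library in this difference was not tested. Of 5715 genes, 457 (8.00%) were at least 4-fold lower in the pooled Morula_E4 cells than in 4C of P1 and 313 (5.48%) at least 4-fold higher. NEFH, a neurofilament gene, stood at 6.25 and 3.82 CPM in Morula_E4 of P1 and P2, against 257 CPM in 4C of P1. KMT2A, a methyltransferase of histone H3 lysine 4, stood at 7.43 and 3.82 CPM in Morula_E4, against 141 CPM in 4C of P1. KIF13B, a kinesin, stood at 6.92 and 1.53 CPM in Morula_E4, against 133 CPM in 4C of P1. ZNF804A, ZHX1, EPHA6, HELZ2, MYH15, MYO5C, PSMA8, NR3C2 and PEAK1 completed the genes lower in Morula_E4. Those higher in it were PROS1, FRRS1, ATP6V0D2, SOWAHB, HOXD1, RND3, COMMD1, ARG1, DAB2, CTSD, CLDN4 and KRT222.

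Between the stages, 20 of 22 nuclear genes of mitochondrial respiration were higher in the morula than in the 4C embryo. So were 7 of 18 chaperone genes and the claudin genes CLDN4, CLDN6 and CLDN7. Each of these claudins kept its call in 7 of 12 alternative fits. Of 23182 genes tested, 1900 (8.20%) were called, 1361 higher (5.87%) and 539 lower (2.33%) in Morula_E4 than in 4C. Without P13 there were 476 higher (2.07%) and 213 lower (0.926%), without P1 there were 1808 (7.95%) and 920 (4.04%), and without P2 there were 693 (3.00%) and 34 (0.147%). Within P1, with the sums of P2 and P13 left out, 265 were higher (1.14%) and 8 lower (0.0346%). The split turned with the scaling: DESeq2's size factors within edgeR gave 907 higher (3.91%) and 1677 lower (7.23%) and moved the median log2 change of all genes by -0.188, and DESeq2 itself gave 1288 and 2350. Leaving out the 13 genes of the mitochondrial genome gave 1074 and 892. With the 4 sums of both groups alone in the fit edgeR called none of 12811 genes, 2302 of which had an unadjusted p under 0.05, and no gene named below kept its call there.

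Nuclear genes of oxidative phosphorylation, none of which was lower, were the list with the largest share of calls, with a median log2 change of 2.23 where all genes had 0. Without P13 the count was 13, without P1 it was 19, without P2 it was 17 and within P1 it was 9; with DESeq2's size factors it was 18. NDUFA9, an accessory subunit of complex I, stood at 175 and 247 CPM in Morula_E4 of P1 and P2, against 23.2 and 16.8 CPM in 4C of P1 and P13, a log2 change of 3.62 ± 0.46 (SE; adjusted p = 6.2e-07). Both morula sums lay above both 4C sums, as they did for 23.5% of all genes tested, while both lay below for 18.5%. ATP5PO, of the stalk of ATP synthase, stood at 503.5 and 717 CPM in Morula_E4, against 102 and 104 CPM in 4C (log2 change 2.83 ± 0.32, adjusted p = 5.6e-08). ATP5MC1, of its membrane ring, stood at 391 and 469 CPM in Morula_E4, against 51.3 and 85.6 CPM in 4C (2.97 ± 0.35, adjusted p = 1.3e-07). Here both 4C libraries had a like level, so P1 and P13 did not part. NDUFA4 stood at 677 and 853 CPM in Morula_E4, against 149 and 189.6 CPM in 4C (2.47 ± 0.30, adjusted p = 2.2e-07). UQCRC1, a core protein of complex III, stood at 271 and 433 CPM in Morula_E4, against 53.7 and 61.7 CPM in 4C. COX4I1, of cytochrome oxidase, was a case of split 4C libraries, at 969 and 1098 CPM in Morula_E4, against 523 and 144 CPM in 4C. It lost its call in 4 of 12 alternatives. CYCS kept its call in 8 of 12 and NDUFV1 in 9. SDHB and NDUFA1 did not pass the test.

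Chaperones of the mitochondrion and cytosol followed, 7 of 18 higher and 1 lower, with a median log2 change of 0.97. The count higher was 3 without P13, 9 without P1, 5 without P2, 2 within P1 and 5 with DESeq2's size factors. HSPD1 and HSPE1 form the chaperonin of the mitochondrial matrix. HSPD1 stood at 866 and 930.3 CPM in Morula_E4, against 361 and 147 CPM in 4C (log2 change 2.01 ± 0.33, adjusted p = 4.1e-05), and HSPE1 at 968 and 1181 CPM, against 315 and 406 CPM. HSP90AB1, the constitutive cytosolic HSP90, stood at 976 and 1093 CPM in Morula_E4, against 365 and 458 CPM in 4C. For these genes both morula sums again lay above both 4C sums. HSPB1, a small heat shock protein, was the member that fell, with 26.2 and 12.97 CPM in Morula_E4, against 51.6 and 255 CPM in 4C, most of it in P13.

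**Figure D3:**
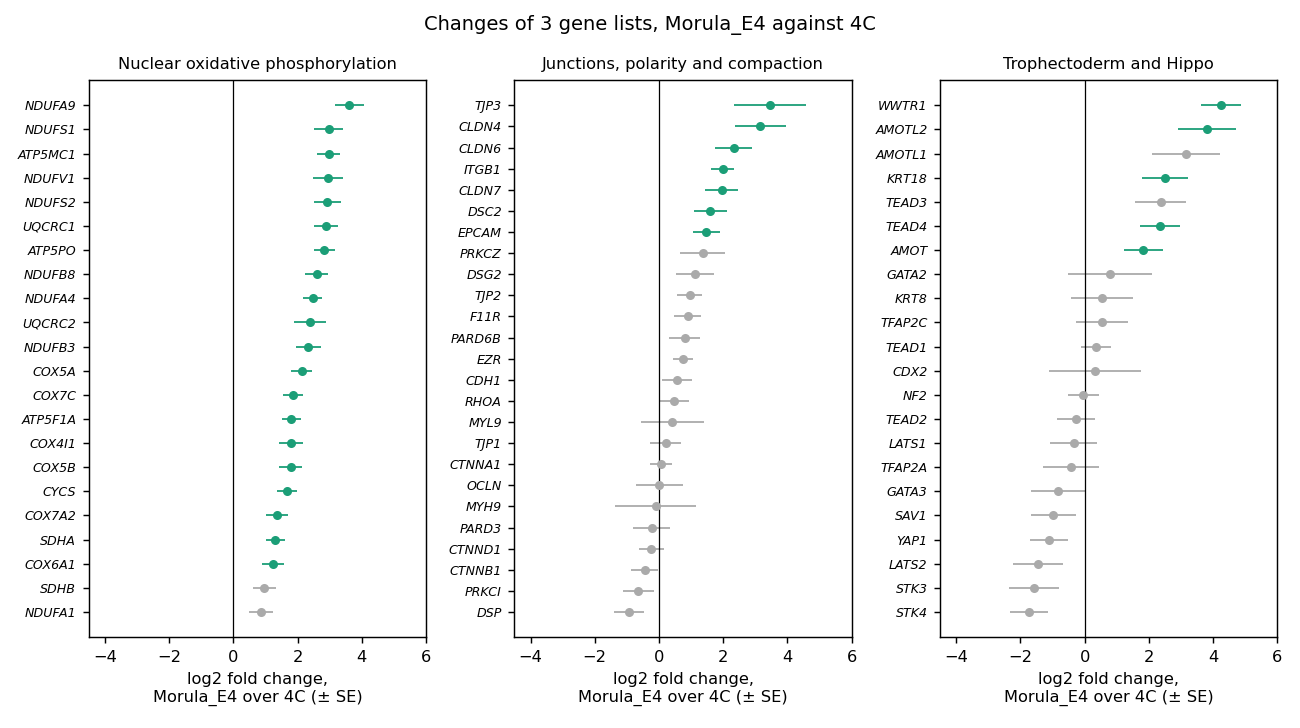
Log2 fold change of single genes, Morula_E4 over 4C, with its standard error, for the lists of nuclear oxidative phosphorylation, junctions and polarity, and trophectoderm and Hippo; green points passed the test and grey ones did not. Almost all respiratory genes lie right of 0, the other lists spread over both sides, and CLDN3, with no count in the 4 sums, is not drawn.

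Of 26 genes of junctions, polarity and compaction, 7 were higher and none lower, with a median log2 change of 0.65. Without P13 the count was 3, without P1 it was 6 higher and 1 lower, without P2 it was 1, within P1 it was 1, and with DESeq2's size factors it was 3 higher and 1 lower. E-cadherin itself, CDH1, stood at 384 and 361 CPM in Morula_E4, against 361 and 228 CPM in 4C, and did not pass (log2 change 0.56, adjusted p = 0.50). The claudins, the sealing proteins of tight junctions, did: CLDN4 stood at 111 and 186 CPM in Morula_E4, against 3.10 and 44.8 CPM in 4C (3.15 ± 0.79, adjusted p = 0.0063). CLDN6 stood at 164 and 259.5 CPM in Morula_E4, against 71.4 and 22.4 CPM in 4C, and CLDN7 at 411 and 469 CPM, against 179 and 81.0 CPM. The integrin chain ITGB1 rose, with 205 and 230.5 CPM in Morula_E4, against 78.6 and 48.4 CPM in 4C (1.99 ± 0.36, adjusted p = 0.00012). EPCAM, DSC2 and TJP3 also passed. EPCAM kept its call in 3 of 12 alternatives, and CLDN4, CLDN6 and CLDN7 in 7 each.

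Genes of the Hippo pathway and of trophectoderm gave 5 of 22 higher and none lower, with a median log2 change of 0.34. The counts were 3 higher without P13, 2 higher and 2 lower without P1, 2 higher without P2 and 2 higher within P1. With DESeq2's size factors they were 3 higher and 2 lower, and the median turned to -0.28; it was -0.12 without P2. The summed level of the list was 1277 and 1650 CPM in Morula_E4, against 1079 and 1716 CPM in 4C, so that 4C of P13 was the highest of the 4 sums. WWTR1, which encodes the coactivator TAZ, stood at 35.6 and 74.0 CPM in Morula_E4, against 2.36 and 5.095 CPM in 4C (4.26 ± 0.62, adjusted p = 6.1e-06). TEAD4, the DNA-binding partner of YAP and TAZ, stood at 141 and 182 CPM in Morula_E4, against 62.1 and 5.095 CPM in 4C. AMOTL2, an angiomotin that holds YAP at junctions, stood at 38.3 and 54.2 CPM in Morula_E4, against 0.443 and 9.68 CPM in 4C. AMOT and KRT18 also passed, AMOT in none of the 12 alternatives. CDX2, the defining factor of trophectoderm, was at or under 1.02 CPM in all 4 sums, and KRT8 split by library in both groups, at 13.2 and 296 CPM in Morula_E4 and at 4.43 and 288 CPM in 4C. P2 also held preTE_E5 and preICM_E5 cells with 781 and 393 CPM of KRT8, and the part of that library in the levels of Morula_E4 of P2 was not tested.

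Of 11 genes of fluid transport, AQP3 rose and ATP1B1 fell, and no gene of this list fell without P13, without P2 or within P1. AQP3, a channel for water and glycerol, stood at 36.0 and 32.8 CPM in Morula_E4, against 0.443 and 2.55 CPM in 4C (5.22 ± 0.92, adjusted p = 1e-04). ATP1B1, a subunit of the sodium pump, stood at 16.9 and 11.5 CPM in Morula_E4, against 20.5 and 107 CPM in 4C, close in P1 and apart only through P13. DAB2, an endocytic adaptor that is not in this list, stood at 72.4 and 80.9 CPM in Morula_E4, against 1.33 and 18.3 CPM in 4C.

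Translation initiation gave 6 of 21 genes higher and none lower, and glycolysis 4 of 17 higher and none lower. Translation gave 16 higher and 1 lower without P1, 1 and 1 without P13, 3 and 0 without P2, 0 and 0 within P1, and 5 and 2 with DESeq2's size factors. Glycolysis gave 3 higher without P13, 1 without P1, 0 without P2, 1 within P1 and 0 with DESeq2's size factors. EIF3I, a subunit of the initiation factor eIF3, stood at 290.2 and 378.5 CPM in Morula_E4, against 95.8 and 71.8 CPM in 4C. ENO1, enolase, stood at 211 and 159 CPM in Morula_E4, against 11.4 and 94.8 CPM in 4C. RNA polymerase II and general transcription gave 3 of 25 higher and 1 lower, and 3 and 2 with DESeq2's size factors. The polymerase subunit POLR2I stood at 130.1 and 143.5 CPM in Morula_E4, against 20.2 and 14.8 CPM in 4C (log2 change 3.18, adjusted p = 1.8e-06). Splicing gave 3 of 24 higher and nucleolus and rRNA synthesis 1 of 29 higher. Without P1, with 4C of P13 alone for the 4C embryo, these were 12 and 17 higher, with 1 nucleolar gene lower. Splicing gave 1 higher and 1 lower without P13, 1 higher without P2 and 0 within P1, and the nucleolar genes gave 0 in all of these. With DESeq2's size factors splicing gave 3 higher and 1 lower, and nucleolar genes 0 higher and 2 lower.

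Pluripotency genes gave shares of calls near those of all genes. Of 13 naive genes TBX3, a T-box factor, passed alone, at 398 and 401 CPM in Morula_E4, against 108 and 33.1 CPM in 4C (2.66 ± 0.57, adjusted p = 0.0012). Without P1 the naive list gave 5 higher and 1 lower with a median log2 change of 3.87, and without P13 or within P1 none. Of 11 core genes UTF1 passed alone, at 33.1 and 33.6 CPM in Morula_E4, against 3.69 and 1.53 CPM in 4C. POU5F1 stood at 348 and 385 CPM in Morula_E4, against 168 and 251 CPM in 4C (log2 change 1.11, adjusted p = 0.24). NANOG was low throughout, at 4.39 and 1.53 CPM in Morula_E4, against 33.9 and 0.509 CPM in 4C. Of 16 hypoblast genes 1 was higher and 2 lower, with a median log2 change of -0.75. With DESeq2's size factors 1 was higher and 3 lower, and the median was -1.08. It was -1.03 without P2, but turned to 0.44 without P13, 0.057 without P1 and 0.16 within P1. The hypoblast factor GATA6 stood at 347 and 398 CPM in Morula_E4, against 275 and 12.7 CPM in 4C, and did not pass.

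Among 11 genes of DNA methylation 2 rose and 3 fell, but none was called without P13, without P2 or within P1. Without P1 there were 4 higher and 3 lower, and with DESeq2's size factors 0 higher and 5 lower. DNMT1, the maintenance methyltransferase, stood at 752 and 308 CPM in Morula_E4, against 1163 and 3459 CPM in 4C (log2 change -1.77, adjusted p = 0.048). UHRF1, which brings DNMT1 to DNA, stood at 24.98 and 2.29 CPM in Morula_E4, against 35.8 and 281 CPM in 4C. DNMT3B, a de novo methyltransferase, stood at 19.6 and 6.11 CPM in Morula_E4, against 14.3 and 203 CPM in 4C, and within P1 its log2 change was 0.43. In all 3 the P13 sum was the high one and the P1 sums lay close together. TET1 and TRIM28 passed in the other direction and kept that in 3 of 12 alternatives each. TUT7, which adds uridines to RNA ends, stood at 39.5 and 25.9 CPM in Morula_E4, against 254 and 141 CPM in 4C. IGF2BP3 stood at 106.5 and 21.4 CPM in Morula_E4, against 333 and 373.5 CPM in 4C, and the spindle checkpoint kinase gene BUB1B at 79.5 and 37.4 CPM, against 208.5 and 343 CPM. Both were lowest in P2 among the morula sums.

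Oocyte genes, 21 of which could be tested, gave no call in this comparison, 2 lower without P1 and 1 lower with DESeq2's size factors. Their summed level was 2185 CPM in Morula_E4 of P1 and 163 CPM in Morula_E4 of P2, against 3175 CPM in 4C of P1 and 5073 CPM in 4C of P13. GDF9, an oocyte growth factor, stood at 223 and 9.92 CPM in Morula_E4, against 226 and 233 CPM in 4C, and BMP15, its partner, at 408 and 17.6 CPM, against 429 and 451 CPM. In these values the morula libraries differed more from each other than Morula_E4 of P1 did from 4C of P1. P1 also held 4 oocytes and 6 zygotes, and P2 none. The preTE_E5 cells of P13 had 622 CPM of these genes, against 49.7 CPM in the preTE_E5 cells of P2, and the part of the library in these levels was not tested.

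Markers of other cells were counted in all 4 sums, and their part in the comparison was not tested. The lists below do not hold the globins HBE1 and HBZ or KRT8, which were counted in 4C of P13 as given above. Cumulus and granulosa genes, 14 of 16 in the table, summed to 285 and 218 CPM in Morula_E4, against 498 and 255 CPM in 4C, with FSHR, INHA and INHBA at 0 in all 4 and AMH at 194 and 175 CPM in Morula_E4, against 169 and 27.5 CPM in 4C. Sperm genes, 11 of 12, summed to 80.2 and 70.2 CPM in Morula_E4, against 85.0 and 138 CPM in 4C, with PRM1, ODF1 and TSSK6 at 0. Oviduct and blood genes, 7 of 10, summed to 15.02 and 4.58 CPM in Morula_E4, against 6.20 and 19.4 CPM in 4C. Cumulus and granulosa genes gave 1 lower call of 11 tested, the others none.

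By size of change, FRRS1, a ferric reductase, led with HOXD1 and PROS1. FRRS1 stood at 149.7 and 147 CPM in Morula_E4, against 2.21 and 3.57 CPM in 4C (6.01 ± 0.89, adjusted p = 7.6e-06). PROS1, the anticoagulant protein S, stood at 96.7 and 240.4 CPM in Morula_E4, against 1.03 and 8.15 CPM in 4C (5.77 ± 0.88, adjusted p = 1.0e-05). ERBB2, a receptor tyrosine kinase, stood at 68.2 and 80.9 CPM in Morula_E4, against 1.77 and 4.08 CPM in 4C (5.08 ± 0.84, adjusted p = 3.9e-05). ARG1, arginase, stood at 268 and 367 CPM in Morula_E4, against 7.82 and 17.8 CPM in 4C. HOXD1, ZNF205, CSRP1, ATP6V1G3, DIRAS3, PORCN, ATP6V0D2 and SLC46A1 made up the 12. Genes were named by size where all sums of a group lay on 1 side of the other's, so the separation of these was set by the choice. KMT2A was among the 12 that fell furthest, with 7.43 and 3.82 CPM in Morula_E4, against 141 and 238.5 CPM in 4C (-4.69 ± 0.97, adjusted p = 7.7e-04). KIF13B and EHF, an ETS factor of epithelia, fell likewise, EHF with 9.96 and 2.29 CPM in Morula_E4, against 125 and 259 CPM in 4C. The rest were JAKMIP2, NUAK1, KCNN3, GRIN3A, DAPP1, EPHA6, NEFH, ZHX1 and MYH15.

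Genes for making ribosomes, for translation and for splicing took a larger share of counts in 4C of P1 than in 2C of P1. Summed nucleolar genes stood at 7989 and 3455 CPM in 4C of P1 and P13, against 3682 and 3461 CPM in 2C. Translation genes stood at 9187 and 5412 CPM, against 4785 and 5073 CPM, and splicing genes at 7465 and 3557 CPM, against 3459 and 2897 CPM. CPM do not give the amount of RNA per cell. All calls of these lists rest on P1. Of the same 23182 genes 1036 (4.47%) were called, 1018 higher (4.39%) and 18 lower (0.0776%) in 4C than in 2C. Without P13 there were 1181 higher (5.14%) and 320 lower (1.39%), and without P1 edgeR called none of 22756 genes in either direction (0.00%), with 448 at an unadjusted p under 0.05. With the library as a replicate block and these 4 sums alone, 19 genes were higher and 2 lower. Of these 21 calls, 7 were also called, in the same direction, among the 1036. Without the block none were called, with 774 at an unadjusted p under 0.05. With DESeq2 0.436% of genes were lower.

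Nucleolar and rRNA synthesis genes gave 13 of 29 higher, translation initiation 11 of 21, splicing 8 of 24, RNA polymerase II 6 of 25 and respiration 7 of 22, none lower, and none called without P1. With DESeq2's size factors the nucleolar count was 6 and the translation count 7. FBL, fibrillarin, stood at 429.9 and 17.3 CPM in 4C of P1 and P13, against 28.0 and 19.4 CPM in 2C of P1 and P13 (log2 change 3.53, adjusted p = 9.5e-05). Without P1 its change was -0.046. PABPC1, which binds the poly(A) tail, stood at 255 and 33.1 CPM in 4C, against 13.1 and 21.7 CPM in 2C (3.41 ± 0.48, adjusted p = 2.9e-05). EIF4G1, the scaffold of the cap-binding complex, stood at 366 and 54.0 CPM in 4C, against 32.5 and 45.3 CPM in 2C. The splicing factor SRSF7 stood at 352.5 and 64.7 CPM in 4C, against 22.1 and 34.0 CPM in 2C, and POLR2F at 409 and 55.0 CPM, against 34.5 and 40.1 CPM. In each, 4C of P1 was several-fold above 4C of P13 and both 2C sums. The 4C sum of P13 lay nearer the 2C sums than 4C of P1, though above both of them in each gene but FBL.

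Of the other 8 genes of genome activation in the table, beside the marker KDM5B, DPPA2 and HSPA8 passed. DPPA2, a chromatin protein of pluripotent cells, stood at 377 and 5.095 CPM in 4C, against 17.4 and 9.91 CPM in 2C. HSPA8, the constitutive HSP70, stood at 877 and 331 CPM in 4C, against 201 and 194 CPM in 2C (1.86, adjusted p = 0.00062), above 2C in both libraries. GATA6 stood at 275 and 12.7 CPM in 4C, against 12.9 and 7.555 CPM in 2C. NR5A2, a nuclear receptor, stood at 388 and 4.59 CPM in 4C, against 11.3 and 0 CPM in 2C, and EED, of Polycomb complex PRC2, at 238 and 11.2 CPM, against 13.8 and 5.67 CPM. NR5A2 kept its call in 4 of 12 alternatives. The genes with the largest changes included PLP2, FABP5, a fatty acid carrier, and the glycolytic PGAM1, with ATP6V1C2, MRPS18A, PERP, RPRD1B, PQBP1, ZNF638, RIMKLB and PABPC1. PGAM1 stood at 294 and 24.5 CPM in 4C, against 11.5 and 21.2 CPM in 2C (3.66 ± 0.53, adjusted p = 4.1e-05). RNFT1, SNX2, NOL4L and NIPSNAP3A were the genes named as lower. SNX2, a sorting nexin, stood at 20.8 and 72.4 CPM in 4C, against 137 and 157 CPM in 2C.

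**Figure D4:**
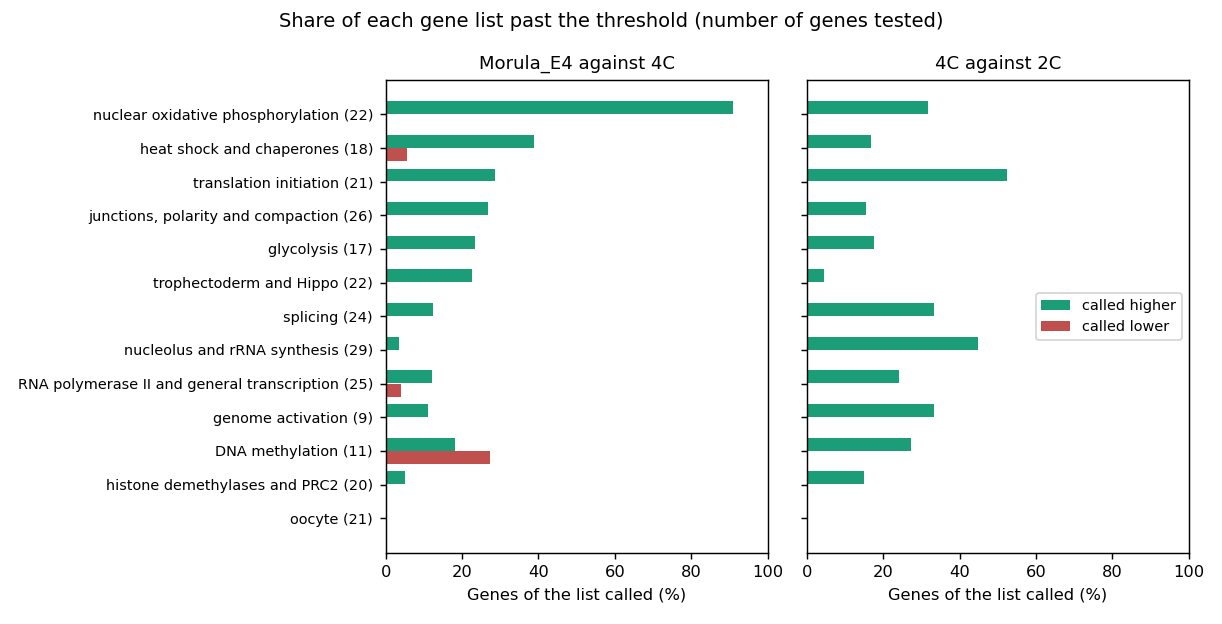
Percentage of the genes of each list, with the number tested in brackets, that were called higher (green) or lower (red), in Morula_E4 against 4C (left) and 4C against 2C (right). Respiratory genes lead on the left, with 20 of 22 higher, and nucleolar and translation genes on the right, with 13 of 29 and 11 of 21 higher. Bars of lists that hold KDM5B, IGF2BP1 or KLF4 count them.

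Respiratory, translation and nucleolar genes were also higher in the morula than in 8C. Morula_E4 against 8C gave 6897 calls (29.8%), 3772 higher (16.3%) and 3125 lower (13.5%), and with DESeq2's size factors 3047 and 4277. Respiration gave 19 of 22 higher and none lower, translation 14 higher and 1 lower, and nucleolus 14 higher and 3 lower. ZFP57, which guards imprints, stood at 143 and 198 CPM in Morula_E4, against 0.0856 and 0.0745 CPM in 8C of P19 and P20 (edgeR, adjusted p = 3.1e-08). BTG4, which removes maternal messages, stood at 25.2 and 1.53 CPM in Morula_E4, against 681 and 673 CPM in 8C, and the fibulin gene FBLN1 at 1.01 and 0 CPM, against 193 and 157 CPM. The 8C libraries held no 2C, 4C or morula cell, so stage and library cannot be told apart here. Against 2C, Morula_E4 had 5068 calls (21.9%), 3322 higher (14.3%) and 1746 lower (7.53%), with DESeq2's size factors 2270 and 3446, and all 22 respiratory genes were higher.

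Cells of the morula in P1 were less alike than the 2C and 4C cells of that library. The median Spearman's rho between pairs of cells was 0.942 over 28 pairs in 2C of P1, 0.867 over 136 pairs in 4C of P1 and 0.789 over 276 pairs in Morula_E4 of P1. In the other libraries it was 0.621 over 15 pairs in 4C of P13 and 0.903 over 15 pairs in Morula_E4 of P2. With every cell thinned to 50000 counts the medians were 0.803 in 2C of P1, 0.761 in 4C of P1, 0.719 in Morula_E4 of P1, 0.829 in Morula_E4 of P2 and 0.662 in the 4 cells left of 4C of P13. Thinned, 2C of P1 still lay above 4C of P1 and that above Morula_E4 of P1, with smaller gaps, but Morula_E4 of P2 lay above 2C of P1, which it did not before thinning. Pairs share cells, so these are descriptions. The authors' deposited standard deviations over cells, on the scale log2(CPM/10 + 1), had a median over genes of 0.761 in Morula_E4 and 0.903 in 4C, the 4C group holding both libraries.

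**Figure D5:**
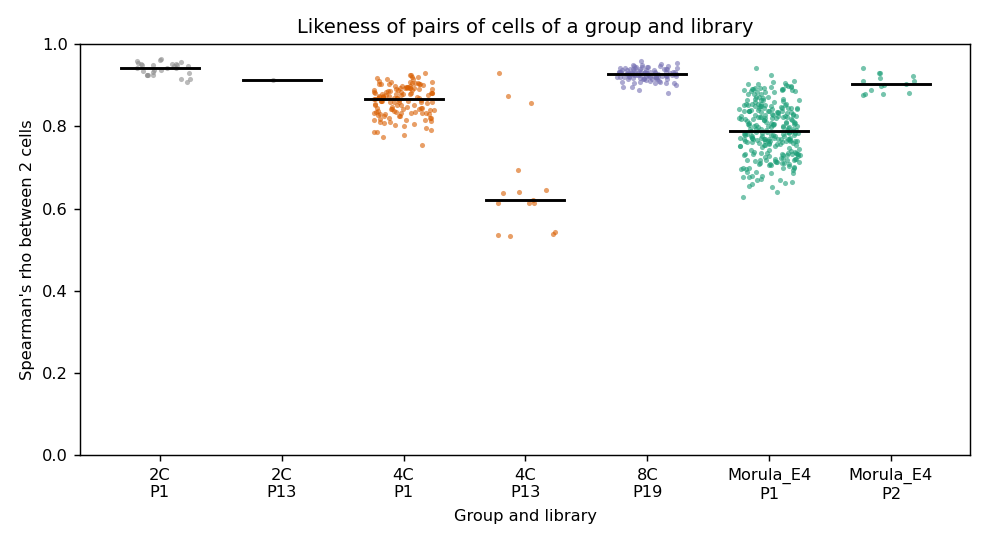
Spearman's rho between pairs of cells within a group and library, each point 1 pair and each black line a median; 8C of P20 is left out for its number of pairs. Pairs of 4C of P13 reach down to 0.533, with a median of 0.621, and pairs of Morula_E4 of P1 have a median of 0.789.

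The genes named as varying most for their level were not shared between groups, nor between the libraries of the same group. These lists therefore do not tell stage from library, and what overlap to expect between them was not tested. In Morula_E4 of P1 the genes that varied most included LRP2, an endocytic receptor, with 0, 201 and 1070 CPM in the lowest, median and highest cell. PRDX1, a peroxiredoxin, had 20.8, 272 and 1182 CPM. CTSD, a lysosomal protease, had 18.5, 111 and 1355 CPM, and ACTG1, cytoplasmic actin, 50.2, 636 and 2028 CPM. The highest cell thus passed 1000 CPM for each of these, while the lowest held 0 CPM of LRP2 and from 18.5 to 50.2 CPM of the others. CLIC4, TUBD1, ACSL6, BNIP3, XPNPEP2 and AGBL5 completed the list. In Morula_E4 of P2 PROS1 had 10.2, 342 and 603 CPM, with NAGK, COMMD2, FRRS1, ZNF205, SGO1, TIMMDC1 and TRMU. In 4C of P1 CCN2, a target of YAP, had 8.02, 376 and 751 CPM, with SULT1E1, PLEKHA5, MT1X, PLIN2, AKAP12, ADAMTS5, NPTX2, DUSP1 and HHEX. In 4C of P13, where depth split the cells, the genes that varied most were TRIP11, APPBP2, OSBPL9, METTL14, CHST3, MPHOSPH9, TSACC, AGFG1, DAB2IP and PELI1.

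Depth and mitochondrial share moved with the cells. Morula_E4 cells had from 54188 to 609290 counts in P1 and from 62980 to 320787 in P2, and 4C cells from 106368 to 648528 in P1 and from 31784 to 831613 in P13. The mitochondrial genome took a median of 3.44% of counts in Morula_E4 of P1 and 2.83% in Morula_E4 of P2, against 1.79% in 4C of P1 and 2.37% in 4C of P13. In Morula_E4 of P1 this share and log10 of the count had a Pearson correlation of -0.937 over 24 cells, given as a description. Its part in the spread between cells was not tested.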

How the data were processed

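The deposited table of raw counts covers 29306 features, of which 29214 are pig genes and 92 are spike-ins, in all 1647 cells; per the submitters' processing notes the tools were STAR 2.7.1a, featureCounts 1.6.4 and UMI-tools with the build Sscrofa11.1, in no stated role or order. The authors' means and standard deviations over cells, on the scale log2(CPM/10 + 1) and of a unit recorded as other, cover 39 groups and 25749 genes; 24284 rows matched by name. Cell names give the library and not the stage, so stage rests on the recovered grouping: recomputed means lay within 0.001 of the deposited ones for 99.88% of genes in 4C and 99.87% in Morula_E4. Spike-ins were left out.

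Summed counts of 67 group and library sums (with a minimum of 5 cells, lowered to 2 in the groups 2C, 4C and Zygote and to 1 in Oocyte) entered 1 fit in edgeR 4.0.16 (R 4.3.3: filterByExpr, TMM, trended dispersion, quasi-likelihood F-test) with 29 residual degrees of freedom and no block. All groups share 1 estimate of spread. On simulated counts with 100 genes changed 4-fold and 100 changed 16-fold, 39% and 89% were found in Morula_E4 against 4C. There were 4 false calls over 22103 genes. Both sums of a group were drawn there from 1 mean per gene. The real 4C sums differed at least 4-fold in 14.7% of genes in 1 direction and 16.8% in the other. The simulated shares therefore need not hold for this comparison. DESeq2 1.42.0 was an alternative. Libraries shared by 2C and 4C (P1 and P13) pair those sums, and the fit with library as a block was an alternative. Python 3.11.15 with numpy 2.4.6, pandas 2.3.3, scipy 1.17.1 and matplotlib 3.10.9 did the rest. Values without a test are CPM ratios with a pseudocount of 1, 95% exact Poisson intervals and a floor of 3 counts, which cover counting error only.

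Members and lists were chosen with earlier results of these data known. Named by size were, per direction, up to 12 called genes that reached 50 CPM in the higher group, with 1 direction between all sums; without a test, the 12 largest ratios with at least 50 CPM and 100 counts. For spread, up to 10 genes of at least 100 CPM were named per group and library. Ribosomal and mitochondrial genes and bare identifiers were not named for size, and some genes that met these rules are not reported here. Names came from the reference for 14800 identifiers and from the authors' table alone for 982.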

Additional observations from a re-analysis of the deposited data

How the results depend on the processing

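For Morula_E4 against 4C, numbers of genes higher and lower were 907 and 1677 with DESeq2's size factors, 265 and 8 within P1 and 0 and 0 with both groups alone in the fit (edgeR, 2302 at an unadjusted p under 0.05). The number lower was 2350 with DESeq2, 1089 without a filter, 1127 with at least 6000 detected genes per cell and 892 without mitochondrial genes, and the number higher was 98 with early groups alone. Leaving out 1 library gave 476 to 1808 higher and 34 to 920 lower. For 4C against 2C, the share of tested genes called lower was 0.436% with DESeq2, 0.212% with at least 6000 genes and 1.39% within P1, beside 0.0776% as reported. With early groups alone edgeR called 0 and 0 (1942 at an unadjusted p under 0.05). With the library as a replicate block, in these groups alone, there were 19 higher and 0.0161% lower, and without the block 0 and 0 (774). Leaving out 1 library gave 0 to 1181 higher and 0 to 1.39% lower. Without a test, 248 genes were at least 4-fold lower by mean CPM over cells. For Morula_E4 against 8C, leaving out 1 library gave 2257 to 2932 higher and 1263 to 3532 lower. For Morula_E4 against 2C, the number lower was 3670 with DESeq2, 3446 with its size factors and 2628 with at least 6000 genes, the number higher was 1621 with early groups alone, and within P1 there were 1758 and 406. Leaving out 1 library gave 1957 to 2454 higher and 258 to 1879 lower. Positions of Morula_E4 moved to 0.9008 in P1 and 0.9920 in P2 with ends from other libraries than P1, and in P2 to 1.0708 thinned, 1.1326 on log2(CPM + 1) and 1.1037 with ends from P1. Median rho thinned was 0.7606 in 4C of P1, 0.7191 in Morula_E4 of P1 and 0.8292 in Morula_E4 of P2. DNMT3B turned to 0.43 within P1, and over 2C the change ran from -0.046 without P1 to 4.01 without P13 for FBL and from -0.059 to 2.94 for NOP58. For the named genes, 768 of 1149 values under alternatives were the same, 338 kept direction without the call, 40 moved and 3 reversed. A tested value was the same where it kept direction and call. Mean CPM over cells had no test, and there the same means a change within 1 SE of the reported one. The causes were not tested, and the smaller fits also held fewer sums. Depth limits 4C of P13 most, with 2 cells under 50000 counts.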
